A study of Mus musculus with 32 samples.

Results

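Nog, Tac4, Acox2, Cdhr3, Vmn2r3 and Fam227b are 6 genes with few or no counts in CTL muscle and many in COX10 KO muscle. They were picked from the 55401 genes of the count files because of that difference in muscle, so their muscle values are given as a description and were not tested. COX10 KO mice are C57BL/6 animals homozygous for a floxed Cox10 allele, with Cre recombinase knocked into the Myl1 locus, so that deletion follows the fast myosin light chain gene of skeletal muscle. CTL mice were littermates of the same strain, and the sources used here do not state which of these alleles they carry. Every mouse was 200 days old. Calf muscle and liver came from 6 COX10 KO and 6 CTL mice (3 females and 3 males of each genotype), and hypothalamus from 4 COX10 KO and 4 CTL males. These sexes follow the sample labels, whereas the authors describe their studies as done in males unless stated otherwise. Each library was read from transcript 3′ ends, and the unit is the raw count of reads per gene.

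COX10 is a farnesyltransferase that acts in the making of heme A for cytochrome c oxidase, the last complex of the respiratory chain. Muscle without COX10 develops a mitochondrial myopathy. The 6 genes belong to unrelated families. Nog encodes noggin, a secreted antagonist that binds bone morphogenetic proteins (BMPs) and keeps them from their receptors. Tac4 encodes hemokinin-1, a tachykinin peptide that acts mainly on the neurokinin receptor encoded by Tacr1. Acox2 encodes a peroxisomal oxidase of branched-chain acyl-CoAs and of bile acid intermediates, and is best known from liver. Cdhr3 encodes a cadherin-related surface protein, whose human counterpart is the receptor of rhinovirus C on ciliated airway cells. Vmn2r3 encodes a pheromone receptor of the vomeronasal organ. No role is given here for Fam227b.

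All positions are in GRCm38, with gene models of GENCODE M21. Nog lies on chromosome 11 at 89300638 to 89302332 on the minus strand and is a single exon of 1695 bases. Tac4, on the plus strand of the same chromosome, covers 95261529 to 95269265 with 4 exons. Acox2 covers 8225511 to 8259353 on the minus strand of chromosome 14 and Cdhr3 covers 33033796 to 33092875 on the minus strand of chromosome 12. Vmn2r3 covers 64257215 to 64289709 on the minus strand of chromosome 3, and Fam227b covers 125983483 to 126152004 on the minus strand of chromosome 2. The 6 genes thus sit on 5 chromosomes, and only Nog and Tac4 share one.

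Promoter sequences of Tac4, Vmn2r3 and Fam227b, each at 0 to 3 pooled CTL muscle counts, and of Cdhr3, which kept reads in every CTL muscle, are printed from RefSeq on GRCm38.p6, from 250 bases before the transcript start to 50 after it. Of the 6 genes, 5 had an entry. Each is written 5′ to 3′ on the strand of its gene. Capitals mark matches on either strand to TGATGNAA, a composite element bound by the stress factor ATF4, and to the E-box CANNTG. The E-box is a general motif of several factors, myogenic ones among them, so a match does not name its factor. The regions are chr11:95261279-95261578 (plus) for Tac4, chr12:33092826-33093125 (minus) for Cdhr3, chr3:64287368-64287667 (minus) for Vmn2r3 and chr2:126151955-126152254 (minus) for Fam227b.
Tac4: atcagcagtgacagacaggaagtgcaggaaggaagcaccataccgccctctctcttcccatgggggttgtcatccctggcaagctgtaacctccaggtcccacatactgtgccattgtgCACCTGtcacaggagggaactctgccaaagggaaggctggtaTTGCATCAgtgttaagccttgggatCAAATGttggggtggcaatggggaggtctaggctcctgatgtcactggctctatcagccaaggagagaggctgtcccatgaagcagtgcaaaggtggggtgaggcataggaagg
Cdhr3: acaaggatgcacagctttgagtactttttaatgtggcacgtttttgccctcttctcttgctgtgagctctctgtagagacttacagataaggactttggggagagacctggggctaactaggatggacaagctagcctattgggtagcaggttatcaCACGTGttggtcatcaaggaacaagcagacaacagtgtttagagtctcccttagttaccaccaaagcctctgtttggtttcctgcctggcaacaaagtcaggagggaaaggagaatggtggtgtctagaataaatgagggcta
Vmn2r3: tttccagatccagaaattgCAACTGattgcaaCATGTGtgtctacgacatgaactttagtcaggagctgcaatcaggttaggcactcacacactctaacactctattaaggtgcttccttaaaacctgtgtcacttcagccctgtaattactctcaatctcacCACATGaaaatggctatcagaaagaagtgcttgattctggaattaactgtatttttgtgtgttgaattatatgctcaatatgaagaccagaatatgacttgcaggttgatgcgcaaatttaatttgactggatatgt
Fam227b: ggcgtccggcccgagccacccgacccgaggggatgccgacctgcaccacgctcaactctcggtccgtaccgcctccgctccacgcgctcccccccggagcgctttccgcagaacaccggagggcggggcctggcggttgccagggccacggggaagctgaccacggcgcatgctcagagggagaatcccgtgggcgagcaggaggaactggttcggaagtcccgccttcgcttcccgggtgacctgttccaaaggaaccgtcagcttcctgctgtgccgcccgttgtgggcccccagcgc

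The Tac4 window held 1 match to the ATF4 element, TTGCATCA, which begins 89 bases before the start and does not overlap an E-box match. No other window of these genes held one, and 3.97% of all 32851 promoter windows of this length did. E-box matches numbered 2 in Tac4, 1 in Cdhr3 (CACGTG), 3 in Vmn2r3, 0 in Fam227b and 2 in Acox2, where both lie in the stretch that its 2 annotated promoters share. Since 72.3% of all windows held an E-box match, its presence does not set these windows apart. The RefSeq start of Vmn2r3 lies 2292 bases inside the GENCODE gene. A match describes the letters only.

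Total counts were 1734571 to 11404800 per library in COX10 KO muscle and 434494 to 8936522 in CTL muscle, 674311 to 3197080 and 1955599 to 16044634 in COX10 KO and CTL liver, and 3526613 to 5684034 and 4070847 to 22321322 in COX10 KO and CTL hypothalamus. Levels below are CPM, counts relative to a library size that was scaled by TMM within each tissue, so levels set side by side across tissues come from separate scalings. The intervals and the limits set by 0 counts reflect counting error alone. Reads from the 3′ end do not check the deletion of Cox10 unless it removes that end: the gene had 113 ± 16.2 CPM in COX10 KO muscle and 109 ± 42.2 CPM in CTL muscle (SD, n = 6 each; edgeR adjusted p = 0.907). Myl1, whose locus carries Cre, had 5445 ± 1503 CPM in COX10 KO muscle and 11487 ± 3288 CPM in CTL muscle (SD, n = 6 each), a log2 fold change of -1.06 (SE 0.24, edgeR adjusted p = 0.00836). In liver, 2 CTL libraries had sex-linked transcripts that did not match their labelled sex.

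**Figure D1:**
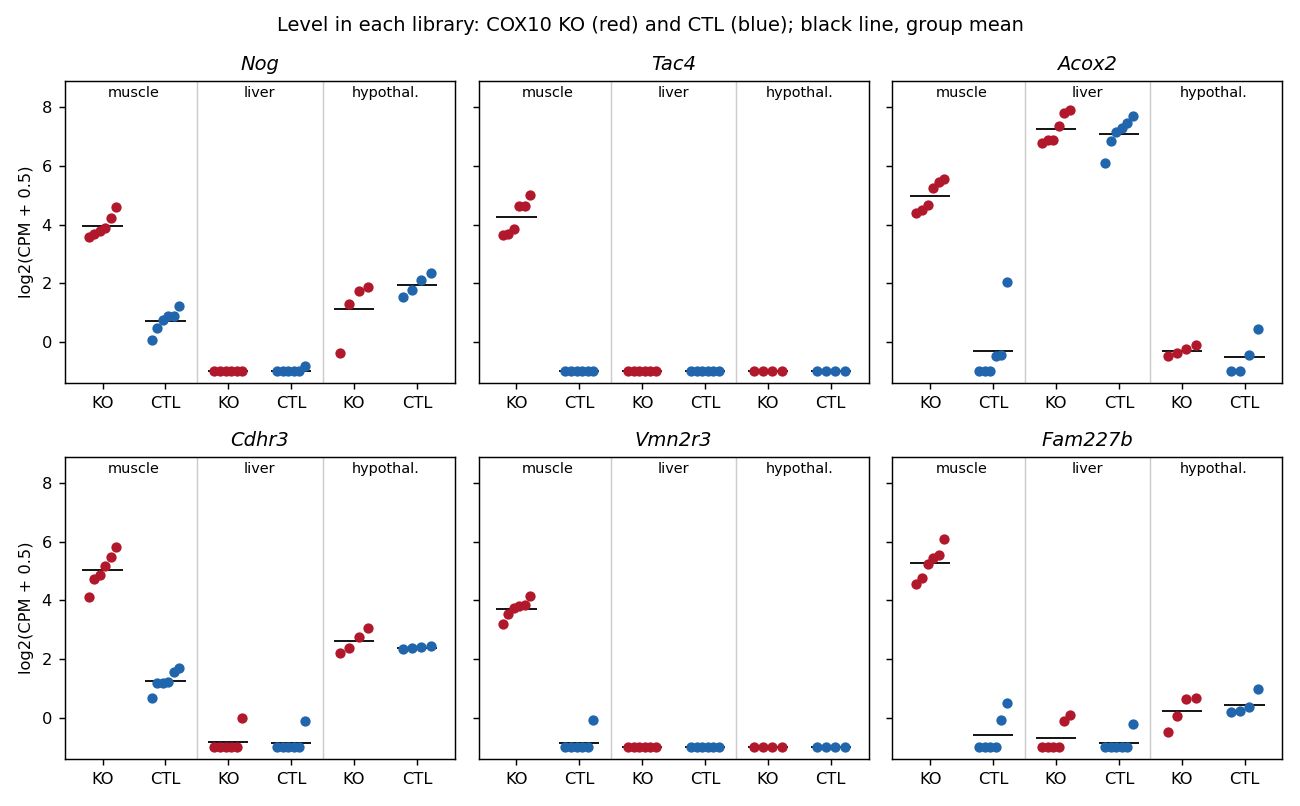
Each point is 1 library, placed by log2(CPM + 0.5) for COX10 KO (red) and CTL (blue) mice in muscle, liver and hypothalamus, with the group mean as a black line (mean of the log2 values; n = 6 per group in muscle and liver and 4 in hypothalamus). In muscle every COX10 KO point stands above every CTL point for all 6 genes, which is how they were picked; in liver only Acox2 stands well above 0 counts, and Tac4 and Vmn2r3 sit at 0 counts in every liver and hypothalamus library.

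Noggin transcript was low in CTL muscle rather than missing. Nog counts were 176, 77, 85, 83, 47 and 144 in the COX10 KO muscles and 6, 1, 2, 10, 3 and 1 in the CTL muscles. This gave 15.6 ± 4.72 CPM in COX10 KO and 1.20 ± 0.437 CPM in CTL muscle (SD, n = 6 each). All CTL libraries held at least 1 read, and the lowest COX10 KO library was 6.24 times the highest CTL library. Pooled over libraries, COX10 KO to CTL was 12.2 (95% Clopper-Pearson interval 8.08 to 19.5; 612 and 23 counts).

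Tac4 was the only one of the 6 with no read in any CTL muscle. Its counts in the COX10 KO muscles were 134, 76, 201, 144, 48 and 154, against 0 in each of the 6 CTL muscles. The COX10 KO mean was 19.9 ± 8.25 CPM (SD, n = 6), and 0 counts over the pooled CTL libraries allow a level of up to 0.153 CPM, taken as 3 counts. Against that floor the pooled level was at least 116-fold higher in COX10 KO muscle. Leaving out CTL muscle 4, the deepest CTL library, lowered this bound to 66.8.

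Acox2, the acyl-CoA oxidase of liver peroxisomes, had 197, 137, 295, 222, 86 and 318 counts in COX10 KO muscles. CTL muscles had 1, 2, 0, 2, 0 and 0 counts. Means were 32.7 ± 11.6 CPM in COX10 KO muscle and 0.685 ± 1.45 CPM in CTL muscle (SD, n = 6 each). The CTL mean rests on CTL muscle 2, the shallowest library, where 2 reads among 434494 counts came to 3.64 CPM. Summed hepatocyte markers in that library were 2401 CPM, the highest of the 12 muscle libraries, against 46.8 to 180 CPM in the other CTL muscles, and their part in the 2 reads was not tested. The pooled ratio was 115 (95% interval 49.3 to 356; 1255 and 5 counts) and became 187 without CTL muscle 2.

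Cdhr3 resembled Nog in keeping some reads in all CTL muscles. Counts were 252, 179, 357, 100, 70 and 564 in COX10 KO and 11, 1, 4, 15, 6 and 2 in CTL muscles, or 34.8 ± 14.1 CPM and 1.95 ± 0.577 CPM (SD, n = 6 each). The lowest COX10 KO muscle had 6.26 times the level of the highest CTL muscle. The pooled ratio was 18.0 (95% interval 13.1 to 25.3; 1522 and 39 counts).

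The pheromone receptor gene Vmn2r3 had 84, 106, 88, 66, 25 and 171 counts in COX10 KO muscles, against a single read in CTL muscle 3 and 0 in the other 5 CTL muscles. Levels averaged 12.9 ± 2.81 CPM in COX10 KO and 0.0750 ± 0.184 CPM in CTL muscle (SD, n = 6 each). Because the CTL total is 1 read, the pooled ratio of 248 is loosely bounded (95% interval 44.4 to 9829). Without CTL muscle 3 no CTL read is left and the ratio becomes a bound of 73.4, and without CTL muscle 4 the ratio was 143.

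Fam227b had 362, 164, 293, 254, 132 and 291 counts in COX10 KO muscles and 0, 0, 1, 0, 2 and 0 counts in CTL muscles. Levels averaged 40.7 ± 16.0 CPM in COX10 KO and 0.226 ± 0.379 CPM in CTL muscle (SD, n = 6 each). The lowest COX10 KO library was 25.3 times the highest CTL library. The pooled ratio was 229 (95% interval 78.3 to 1114; 1496 and 3 counts), and it was 132 without CTL muscle 4 and 611 without CTL muscle 5, which holds 2 of the 3 CTL reads. In bulk muscle, more transcript per cell and more cells that carry the transcript cannot be told apart, for Fam227b as for the other 5 genes.

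**Figure D2:**
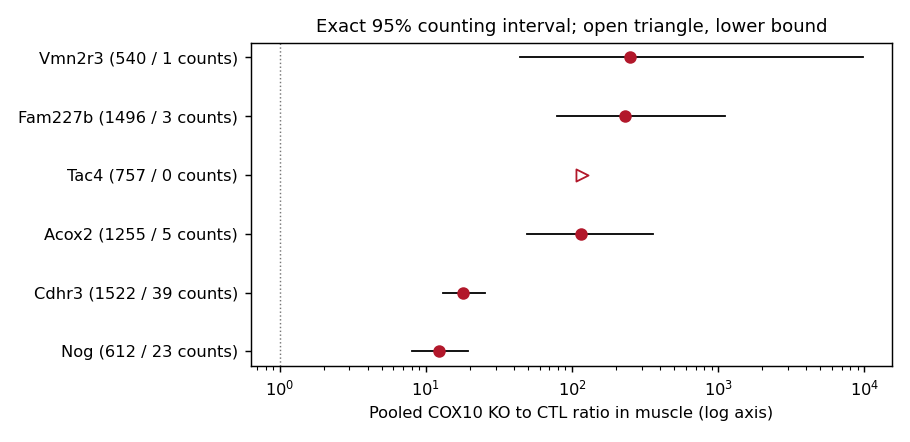
Points give the pooled COX10 KO to CTL ratio of each gene in muscle on a log axis, and bars its exact 95% counting interval; the open triangle for Tac4, with 0 CTL counts, is a lower bound of 116. Cdhr3 (18.0) and Nog (12.2) have the narrowest intervals, and the interval of Vmn2r3, with 1 CTL count, reaches 9829.

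Where the selection ended was described by ranking the 44479 genes with no more pooled CTL muscle counts than Cdhr3 (39) by the pooled ratio, with CTL set to at least 3 counts. On this scale Fam227b ranked 1 (229), Tac4 ranked 3 (116), Acox2 ranked 4 (115) and Vmn2r3 ranked 5 (82.8), while Cdhr3 ranked 18 (18.0) and Nog 34 (12.2). The named genes just above and below them were not picked. Gdf15, a stress-induced hormone, ranked 2 (118), and Chrng, the fetal acetylcholine receptor subunit, ranked 7 (60.6). The amino acid transporter gene Slc7a5 (18.9) and Rprml (16.7) bracketed Cdhr3, and Clec4n (12.6) and Grin2c (12.1) bracketed Nog. The 6 genes are therefore not the 6 largest ratios.

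The COX10 KO mouse with the highest level was not the same for all 6 genes. Among the 6 COX10 KO muscles, the highest library was 1.96 times the lowest for Vmn2r3 and 3.32 times for Cdhr3, and coefficients of variation ran from 21.8% (Vmn2r3) to 41.5% (Tac4). COX10 KO muscle 3 was highest for Tac4, Acox2 and Cdhr3 (31.9, 46.8 and 56.6 CPM), COX10 KO muscle 5 for Nog and Fam227b (24.0 and 67.3 CPM), and COX10 KO muscle 2 for Vmn2r3 (17.1 CPM). Lowest were COX10 KO muscle 6 for Nog, Tac4 and Fam227b (11.4, 12.2 and 23.0 CPM), COX10 KO muscle 1 for Acox2 and Vmn2r3 (20.5 and 8.72 CPM) and COX10 KO muscle 4 for Cdhr3 (17.1 CPM).

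**Figure D3:**
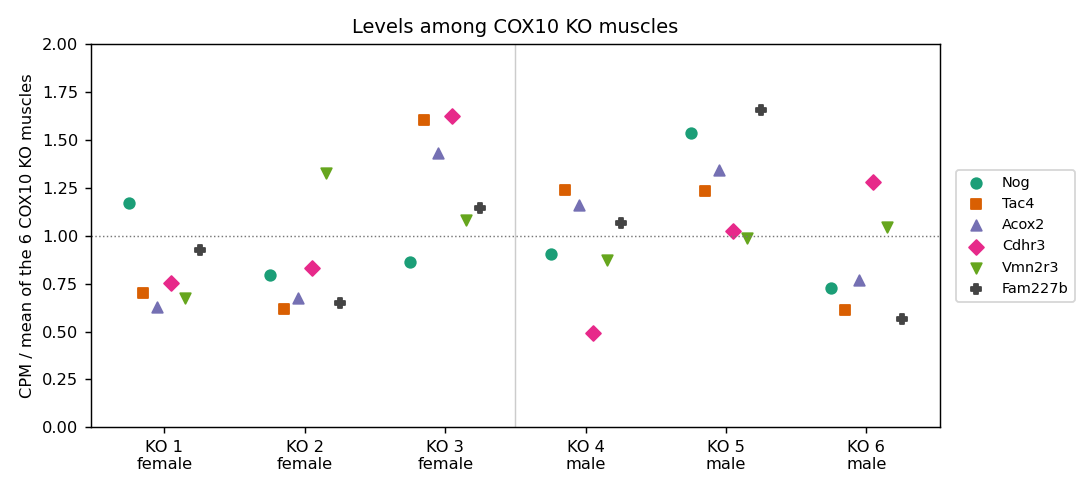
Each gene's CPM in the 6 COX10 KO muscles is divided by its mean over them, with females on the left and males on the right. Relative levels run between 0.490 (Cdhr3 in COX10 KO muscle 4) and 1.65 (Fam227b in COX10 KO muscle 5), and the points of the sexes overlap for each gene.

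Female and male COX10 KO muscles were compared within the genotype. The choice of genes did not compare the sexes, but it used these same 6 libraries. Since genes were picked for being high in them, a gene high in only 1 sex was less likely to be among the 6. None of the 6 genes passed the test, where 0.035% of the 11422 genes tested did (4 genes). Log2 fold changes of female over male ran from -0.25 (SE 0.36) for Acox2 and -0.25 (SE 0.38) for Fam227b to 0.19 (SE 0.40) for Cdhr3, with edgeR adjusted p between 0.999 and 1.00. Tac4 averaged 19.4 ± 10.9 CPM in females and 20.4 ± 7.14 CPM in males, and Cdhr3 37.2 ± 16.8 CPM in females and 32.4 ± 14.0 CPM in males (SD, n = 3 each). With 3 mice per sex, the log2 difference plus and minus 2 SE still runs from -0.90 to 0.78 for Tac4 and from -0.62 to 0.99 for Cdhr3, so differences of that size are not shown to be absent.

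Liver carried Acox2 in both genotypes. Acox2 counts were 391, 278, 72, 393, 220 and 697 in COX10 KO livers and 3188, 320, 164, 312, 493 and 724 in CTL livers, whose depths differ. Levels were 163 ± 58.0 CPM in COX10 KO and 144 ± 48.1 CPM in CTL liver (SD, n = 6 each), and the libraries of the genotypes overlapped. The log2 fold change was 0.16 (SE 0.29), with plus and minus 2 SE from -0.43 to 0.74, and did not pass the test (edgeR adjusted p = 0.997, 0.885 to 1.00 over 18 alternatives), where 0.0927% of 9707 genes tested did. Without the 2 CTL livers whose sex-linked transcripts did not match, it was 0.42 (adjusted p = 1.00). Beside these levels, COX10 KO muscle had 32.7 CPM of Acox2 on its own scaling.

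The other 5 genes were nearly or entirely without reads in liver. Tac4 and Vmn2r3 had 0 counts in all 12 libraries, which allows up to 0.251 CPM over the COX10 KO and 0.0994 CPM over the CTL livers. Nog had 0 counts in COX10 KO and 1 in CTL livers, Cdhr3 had 1 in COX10 KO and 1 in CTL livers, and Fam227b had 2 in COX10 KO and 1 in CTL livers. At this depth no difference between the genotypes was detectable for them.

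In hypothalamus, Cdhr3 and Nog were measured in both genotypes. Cdhr3 counts were 29, 15, 45 and 21 in COX10 KO and 102, 22, 22 and 19 in CTL males, or 5.75 ± 1.71 CPM and 4.76 ± 0.167 CPM (SD, n = 4 each). CTL libraries lay close together at 4.60 to 4.99 CPM, inside the COX10 KO range of 4.14 to 7.93 CPM. The log2 fold change was 0.29 (SE 0.28, edgeR adjusted p = 1.00). Nog counts were 9, 1, 18 and 13 in COX10 KO and 51, 18, 13 and 19 in CTL males, or 2.07 ± 1.31 CPM and 3.44 ± 0.975 CPM (SD, n = 4 each), with a log2 fold change of -0.63 (SE 0.47, edgeR adjusted p = 1.00). Neither passed the test, nor did any of the 13504 genes tested (0%; 0 genes in edgeR and 0 in DESeq2, and 211 at an unadjusted p under 0.05 in edgeR). With the replicate number as a block, 2 genes passed, neither of them Nog (adjusted p = 0.602) nor Cdhr3 (adjusted p = 0.712).

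Fam227b and Acox2 were near the floor in hypothalamus. Fam227b counts were 5, 2, 6 and 1 in COX10 KO and 17, 3, 3 and 6 in CTL males, 0.728 ± 0.416 CPM and 0.892 ± 0.381 CPM (SD, n = 4 each; two-sided exact permutation p = 0.571, 0.914 adjusted over 2 tests). Acox2 counts were 2, 1, 2 and 1 in COX10 KO and 5, 4, 0 and 0 in CTL males (two-sided exact permutation p = 0.914, 0.914 adjusted), and the smallest p of this design is 0.0286. Permuted within the 4 same-numbered pairs, a test added after the data were seen whose smallest p is 0.125, the exact p was 0.875 for each gene, with COX10 KO above CTL in 2 of 4 pairs for Fam227b and 3 of 4 for Acox2. Tac4 and Vmn2r3 had no read in any of the 8 libraries, which allows up to 0.163 CPM over the COX10 KO and 0.0867 CPM over the CTL libraries.

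Levels in CTL hypothalamus and CTL liver are given as a description, since Cdhr3 and Acox2 each passed the filter on low counts only through the tissue where it is high. Cdhr3 had 4.76 ± 0.167 CPM in CTL hypothalamus (SD, n = 4; 165 pooled counts) and 0.0699 ± 0.171 CPM in CTL liver (SD, n = 6; 1 count). Acox2 had 0.271 ± 0.401 CPM in CTL hypothalamus (SD, n = 4; 9 counts) and 144 ± 48.1 CPM in CTL liver (SD, n = 6; 5201 counts). Tissue and sex are mixed between these groups, since the hypothalamus libraries are from males only. By median level, COX10 KO muscle stood above all other groups for Nog (13.8 CPM), Tac4 (19.2 CPM), Cdhr3 (32.3 CPM), Vmn2r3 (13.1 CPM) and Fam227b (40.5 CPM), and only for Acox2 was it below liver. For Nog, CTL hypothalamus (median 3.38 CPM) and COX10 KO hypothalamus (2.41 CPM) overlapped and came next, with CTL muscle (1.27 CPM) behind them.

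Genes beside and across the 6 loci were then read for the same muscle comparison. Overlapping genes and the nearest gene on each side on the same strand followed the rule for named genes, and the nearest protein-coding genes on both strands were added after values had been seen. Of 36 neighbours in all, 18 passed the filter on low counts, 9 had no read in any muscle library, 3 rose and 2 fell. The largest log2 fold change among the neighbours was 1.29. Over all 11636 genes tested in muscle, 6.9% rose and 7.43% fell in COX10 KO.

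Fam227b lies in the most crowded locus. Its 3′ end runs into the 3′ end of Galk2, an N-acetylgalactosamine kinase gene on the opposite strand, with 283 exon bases in common. Galk2 had 7.48 ± 2.77 CPM in COX10 KO and 3.67 ± 1.07 CPM in CTL muscle (SD, n = 6 each), a log2 fold change of 1.06 (SE 0.34, edgeR adjusted p = 0.0481) that passed in 5 of 17 alternatives (adjusted p 0.00910 to 0.0965). The kit keeps the strand of the transcript, but whether counting used it is not given in the sources used here, and without strand reads from these shared bases cannot be told apart. Fam227b itself had 1496 pooled counts in COX10 KO muscle, against 273 for Galk2. Fgf7, a growth factor gene inside Fam227b on the opposite strand with no shared exon base, had a log2 fold change of 0.38 (SE 0.43, edgeR adjusted p = 0.604).

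The start of Fam227b faces that of Dtwd1, 137 bases away on the opposite strand, and the printed window holds both starts. Dtwd1 had 9.61 ± 2.00 CPM in COX10 KO and 5.52 ± 1.82 CPM in CTL muscle (SD, n = 6 each; log2 fold change 0.69, SE 0.25, edgeR adjusted p = 0.0761). The snRNA gene Gm26496, inside Fam227b on its own strand, had no reads. On the same strand downstream, Cops2, a signalosome subunit gene 124344 bases away, had a log2 fold change of 0.36 (SE 0.18, edgeR adjusted p = 0.197), and upstream Gm24739 had no reads. Eid1, 308698 bases downstream on the opposite strand, rose with a log2 fold change of 0.79 (SE 0.18, edgeR adjusted p = 0.00899).

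Beside Acox2, Pdhb rose. It encodes the beta subunit of the E1 enzyme of pyruvate dehydrogenase, lies 52486 bases downstream on the same strand and had 772 ± 77.7 CPM in COX10 KO and 315 ± 102 CPM in CTL muscle (SD, n = 6 each; log2 fold change 1.29, SE 0.22, edgeR adjusted p = 0.00143). Fam107a, 36921 bases upstream on the same strand (log2 fold change 0.70, edgeR adjusted p = 0.375), and Kctd6, 1948 bases beyond the 3′ end on the opposite strand (0.37, adjusted p = 0.580), did not pass.

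At the other loci no tested gene on the same strand passed in the main fit. Around Nog, Ankfn1 (87891 bases upstream) had 10 counts in COX10 KO and 17 in CTL muscle, and Gm24734 had 0. Around Tac4, Gm11514 had 0 counts, Gm11520 had a log2 fold change of -0.99 (SE 0.63, edgeR adjusted p = 0.313), and Kat7, a histone acetyltransferase gene whose 3′ end lies 4994 bases away on the opposite strand, had 28.6 ± 3.26 CPM in COX10 KO and 27.8 ± 7.10 CPM in CTL muscle (SD, n = 6 each). Around Cdhr3, the miRNA gene Gm22904 inside it on the opposite strand and the snRNA gene Gm24922 had 0 counts, and F730043M19Rik, 18836 bases upstream, had 62 counts in COX10 KO and 19 in CTL muscle. Hdac9, 954705 bases upstream of Cdhr3 on the same strand, had a log2 fold change of -0.98 (SE 0.34, edgeR adjusted p = 0.0669). It passed in 4 of 17 alternatives. On the opposite strand from Nog, Tmem100 fell (log2 fold change -1.46, SE 0.31, edgeR adjusted p = 0.00672), 728016 bases away.

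Vmn2r3 stands among other vomeronasal receptor genes, whose sequences are alike, so reads can be shared or lost between copies. Its same-strand neighbours Gm18294, a pseudogene, and Gm23897 had 0 counts. Of its closest relatives, Vmn2r1 had 29 counts in COX10 KO and 8 in CTL muscle, Vmn2r2 had 1 in COX10 KO and 0 in CTL, and Vmn2r4, Vmn2r5, Vmn2r6 and Vmn2r7 had 0 in both. Over all 327 other Vmn1r and Vmn2r genes, 84 counts fell in COX10 KO and 25 in CTL muscle, against 540 and 1 for Vmn2r3 alone. Kcnab1, the nearest protein-coding gene upstream on the opposite strand, lies 819675 bases away. It fell with a log2 fold change of -1.86 (SE 0.39, edgeR adjusted p = 0.00550).

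**Figure D4:**
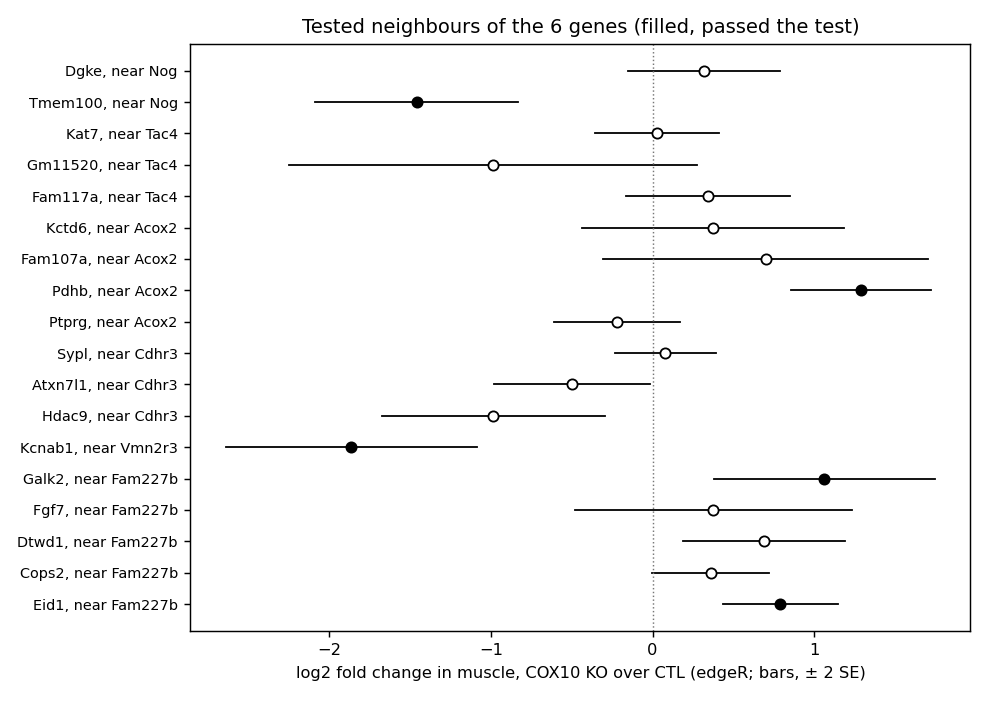
Log2 fold changes of COX10 KO over CTL in muscle (edgeR; bars are plus and minus 2 SE) are drawn for the 18 tested neighbours of the 6 genes, ordered by distance under each gene, with filled points for those past the test. Values lie between -1.86 (Kcnab1) and 1.29 (Pdhb).

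The relatives of the 6 genes given here were not near-silent in CTL muscle and high in COX10 KO muscle. Acox3 had a log2 fold change of 0.40 (SE 0.19, edgeR adjusted p = 0.167). Of the tachykinin genes, Tac1 had 14 counts in COX10 KO and 5 in CTL muscle, and Tac2 had 1 in each. Cdhr1 had 2 counts in COX10 KO and 0 in CTL muscle, Cdhr5 10 and 3, and Cdhr2 and Cdhr4 had 0 in both. Fam227a had 35 counts in COX10 KO and 16 in CTL muscle.

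In the BMP pathway, where Nog acts, no gene of the lists read here rose and 4 fell. Beside these, 6.9% of all genes tested in muscle rose and 7.43% fell. BMP ligands had 0 of 5 tested genes past the test, with a median log2 fold change of -0.26 against -0.03 over all genes. Bmp4 had 25.3 ± 6.37 CPM in COX10 KO and 30.0 ± 7.58 CPM in CTL muscle (SD, n = 6 each; log2 fold change -0.26, edgeR adjusted p = 0.469). Gdf5, too low to be tested, had 19 counts in COX10 KO and 0 in CTL muscle, a pooled level at least 2.91-fold higher.

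BMP receptors fell in 3 of 7 genes and rose in none (median log2 fold change -0.60). The type I receptor gene Acvr1 had 17.6 ± 9.18 CPM in COX10 KO and 34.3 ± 12.3 CPM in CTL muscle (SD, n = 6 each; log2 fold change -1.03, SE 0.30, edgeR adjusted p = 0.0317). The type II receptor genes Acvr2b (-1.52, SE 0.45, adjusted p = 0.0320) and Acvr2a (-0.60, SE 0.19, adjusted p = 0.0482) also fell. These calls are close to the threshold, and of 17 alternatives they held in 8 for Acvr1, 7 for Acvr2b and 4 for Acvr2a. Without CTL muscle 6, none of the 3 passed (adjusted p = 0.0805, 0.0938 and 0.0806). The count was also 0 without COX10 KO muscle 2, 3 or 4, and 1 without CTL muscle 2, 4 or 5 or COX10 KO muscle 1, 5 or 6.

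Among BMP antagonists other than Nog, 1 of 11 fell and none rose (median log2 fold change -0.54). That gene was Fstl1, which encodes a follistatin-like secreted protein, with 10.3 ± 1.87 CPM in COX10 KO and 25.8 ± 17.2 CPM in CTL muscle (SD, n = 6 each; log2 fold change -1.32, SE 0.38, edgeR adjusted p = 0.0305). It passed in 9 of 17 alternatives, and not without CTL muscle 3 (adjusted p = 0.147), CTL muscle 5 or 6 or COX10 KO muscle 2, 3, 5 or 6. Nbl1 (-0.71, adjusted p = 0.0622) did not pass. None of 11 signal mediators and targets passed (median log2 fold change -0.13), with Smad6, an inhibitory Smad gene, at -1.26 (SE 0.41, adjusted p = 0.0515) and the target gene Id3 at 0.73 (SE 0.29, adjusted p = 0.103). With DESeq2, 2 of these mediators fell.

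The receptor of the Tac4 peptide was hardly read in muscle. Tacr1 had 0 counts in COX10 KO and 8 in CTL muscle, and Tacr2 had 0 in both. Tacr3, a receptor of the related peptide neurokinin B, had 2.18 ± 0.833 CPM in COX10 KO and 2.83 ± 0.972 CPM in CTL muscle (SD, n = 6 each; log2 fold change -0.36, SE 0.40, edgeR adjusted p = 0.589). None of the 4 tested genes of tachykinins, their receptors and the peptidases that degrade them passed (median log2 fold change 0.00), among them the peptidase genes Ece1 (0.44, adjusted p = 0.449), Ace (0.06, adjusted p = 0.912) and Mme (-0.05, adjusted p = 0.962).

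Of the other 15 tested genes of peroxisomal fatty acid oxidation, 2 rose and 0 fell (median log2 fold change 0.14), where 6.9% of all genes tested in muscle rose. Eci2, an enoyl-CoA isomerase gene whose product is found in peroxisomes and mitochondria, had 118 ± 14.4 CPM in COX10 KO and 45.6 ± 10.9 CPM in CTL muscle (SD, n = 6 each; log2 fold change 1.37, SE 0.19, edgeR adjusted p = 0.000325). Phyh, the first enzyme of phytanic acid alpha-oxidation, had 286 ± 11.7 CPM in COX10 KO and 172 ± 50.6 CPM in CTL muscle (SD, n = 6 each; log2 fold change 0.74, SE 0.19, edgeR adjusted p = 0.0204). Without CTL muscle 6, Phyh no longer passed (adjusted p = 0.0527). Pecr (-0.65, adjusted p = 0.0567) and Decr2 (0.79, adjusted p = 0.107) did not pass, and DESeq2 called 2 genes of the list higher and 2 lower.

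Peroxisome biogenesis genes had 1 of 14 tested genes higher and none lower (median log2 fold change 0.00), where 6.9% of all genes tested in muscle rose and 7.43% fell. Pex14, a gene of the protein import machinery, had 80.4 ± 13.1 CPM in COX10 KO and 52.3 ± 7.95 CPM in CTL muscle (SD, n = 6 each; log2 fold change 0.61, SE 0.17, edgeR adjusted p = 0.0259), and did not pass without CTL muscle 6 (adjusted p = 0.0722) or without COX10 KO muscle 2 (adjusted p = 0.0524). Classical cadherins fell in 2 of 3 tested genes (median log2 fold change -0.87), Cdh4 with -1.99 (SE 0.49, edgeR adjusted p = 0.0141) and Cdh13 with -0.87 (SE 0.22, adjusted p = 0.0184). Cdh13 did not pass without COX10 KO muscle 5 (adjusted p = 0.0689) or 6 (adjusted p = 0.0528). None of the other cadherin-related genes was high enough to test.

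Of the lists read beside the 6 genes, a pair rose almost throughout, where 6.9% of all 11636 genes tested in muscle rose. Both lists were chosen with earlier results of these data known, so their counts and p-values are a description. Of 13 tested genes of the integrated stress response, the programme driven by ATF4, 12 rose (median log2 fold change 3.12). Gdf15 (log2 fold change 6.88, edgeR adjusted p = 9.00e-11), the mitochondrial folate enzyme gene Mthfd2 (4.43, adjusted p = 5.78e-09), Trib3 (5.15, adjusted p = 7.32e-07) and the serine synthesis gene Psat1 (3.85, adjusted p = 4.18e-06) had the smallest p. Of 12 tested genes linked to denervation and regeneration, 11 rose (median log2 fold change 2.71). With each library left out, this count was 9 to 12, while that of the integrated stress response stayed at 12. The perinatal myosin gene Myh8 (4.74, adjusted p = 5.64e-07), the myogenic factor gene Myog (4.01, adjusted p = 7.32e-07), Gadd45a (2.82, adjusted p = 3.11e-05) and the adhesion molecule gene Ncam1 (1.90, adjusted p = 4.21e-05) led this list. Each list has 1 tested gene at 0 counts in CTL muscle (Fgf21 and Mymk). Such a gene can pass the filter on low counts only through COX10 KO muscle. The same holds for Gdf15 (5374 pooled counts in COX10 KO and 21 in CTL muscle) and Chrng (395 and 2). Other listed genes with few CTL counts were not checked for this. Setting Fgf21 and Mymk at their lower bounds left the medians as they are.

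**Figure D5:**
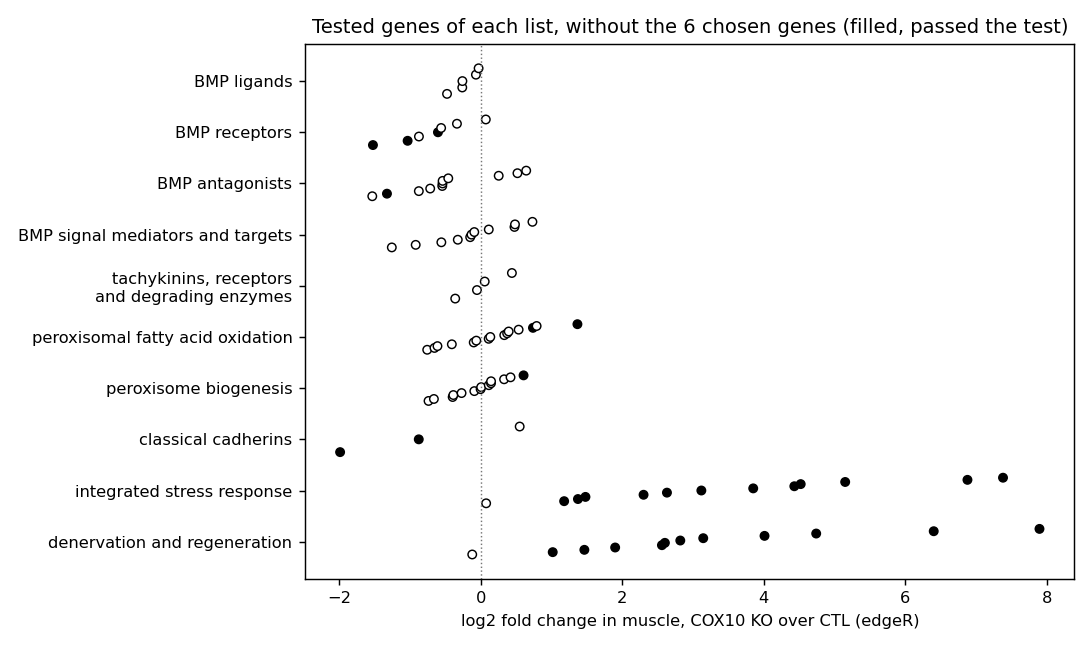
Each point is 1 tested gene of a list, without the 6 genes themselves, placed by its log2 fold change of COX10 KO over CTL in muscle (edgeR); filled points passed the test, and the fitted values of Fgf21 and Mymk, at 0 counts in CTL, depend on the prior count. Of the integrated stress response 12 of 13 and of denervation and regeneration 11 of 12 points are filled on the right, while BMP receptors have 3 filled points of 7, all on the left.

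Over the 32 libraries of all tissues, the genes most like each of the 6 in log2(CPM + 0.5) were named by Pearson correlation among 11007 candidates. These values describe libraries that share tissue and genotype, so most of the likeness is the contrast of COX10 KO muscle with the rest. Tac4 was most like Vmn2r3 (0.99), Chrng (0.98) and Fam227b (0.96), and Vmn2r3 and Fam227b were alike at 0.95, each with Chrng (0.95 and 0.95) among its closest 3. All of these are near 0 outside COX10 KO muscle, and Chrng had 10.5 ± 8.30 CPM in COX10 KO and 0.151 ± 0.371 CPM in CTL muscle (SD, n = 6 each). Nog was most like Cdhr3 (0.96), then the glycyl-tRNA synthetase gene Gars (0.93) and Mthfd2 (0.92). Cdhr3 was next most like the stress factor gene Ddit3 (0.94) and Sh2d6 (0.94). Acox2, the only one of the 6 that is high in liver, was most like Dera (0.93), the chaperonin gene Hspe1 (0.93) and Fmo1 (0.92).

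Markers of cells that usually express these genes were read in the same muscles. Of the motile ciliated cell list, 1 of 8 genes could be tested and it fell (Tekt1, log2 fold change -2.36, edgeR adjusted p = 0.0248; no longer called without CTL muscle 1, 3 or 6 or COX10 KO muscle 2 or 5), with the summed list at 1.11 to 5.80 CPM in COX10 KO and 3.64 to 9.25 CPM in CTL muscles. Omp and Trpc2, the defining genes of vomeronasal neurons, had 0 counts in all 12 muscles, and 1 of 5 genes of that list was tested and did not pass. Other genes of that list were read, with sums of 9.38 to 14.5 CPM in COX10 KO and 9.91 to 23.2 CPM in CTL muscles. The spermatid genes Prm1, Tnp1 and Acrv1 had 0 counts in all muscles, and the list of 6 summed to 0 to 0.341 CPM in COX10 KO and 0 to 0.240 CPM in CTL muscles. Hepatocyte genes, read because Acox2 is a liver gene, had 0 of 7 tested genes past the test, with sums of 20.8 to 341 CPM in COX10 KO and 46.8 to 2401 CPM in CTL muscles.

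Macrophage markers rose in 3 of 8 genes and fell in none, with sums of 230 to 533 CPM in COX10 KO and 119 to 361 CPM in CTL muscles, led by Cd68 (log2 fold change 3.79, edgeR adjusted p = 7.51e-07). The count was 1 to 4 with each library left out, and 1 without CTL muscle 1, 5 or 6 or COX10 KO muscle 2, 4, 5 or 6. Skeletal muscle fibre markers fell in 4 of 8 genes, with sums of 62552 to 115819 CPM in COX10 KO and 64278 to 190320 CPM in CTL muscles. That count was 1 to 6 with each library left out, 1 without CTL muscle 3, 5 or 6 or COX10 KO muscle 1, 2, 5 or 6 and 2 without COX10 KO muscle 3. The neuron list fell in 1 of 3 tested genes and the tendon and cartilage list in 1 of 5 (0 without CTL muscle 1 and 2 without CTL muscle 2). No gene passed among 6 of fibroblasts, 6 of Schwann cells, 3 of satellite cells, 6 of endothelium and 5 of adipocytes, and no lymphocyte gene was high enough to test. Among all genes tested in muscle, 6.9% rose and 7.43% fell. The part of these cell types in the levels of the 6 genes was not tested.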

How the data were processed

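Libraries of 3′ ends (QuantSeq FWD, single-end reads) were made from muscle, liver and hypothalamus of COX10 KO and CTL mice. The authors trimmed reads with BBDuk, aligned them with STAR 2.5.0a to GRCm38.p6 and deposited raw counts per gene from HTSeq 0.6.1, without normalization; the strand setting of the counting and the annotation release are not given in the sources used here. Of 55401 gene identifiers, 55141 were matched to a symbol in GENCODE M21 (54349 with the same version). No libraries were identical, and p-values measure the spread between these samples.

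Each comparison was fitted over all genes with edgeR 4.0.16 in R 4.3.3: TMM factors, filterByExpr on the design, a quasi-likelihood F test, two-sided, with a term for sex where both sexes were compared by genotype, and Benjamini-Hochberg adjustment, with a call at an adjusted p under 0.05. The fits were tested on simulated data. Standard errors were taken from the F statistic. Ratios of pooled counts carry Clopper-Pearson intervals of 95%, and a group at 0 counts was set at 3 counts over the group. Genes below the filter with at least 10 pooled counts had an exact permutation test in Python 3.11.15 with scipy 1.17.1. Alternatives were DESeq2 1.42.0, relative log expression factors, no filter, no sex term, the replicate number as a block, each library left out and the CTL livers with mismatched sex left out.

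The 6 genes, the gene lists and the tests were chosen with earlier results of these data known. Genes named are these 6, their overlapping and nearest same-strand neighbours, up to 4 genes per pathway list with the smallest p, close relatives, the 3 most correlated genes of each, the genes ranked next to them by ratio, and Cox10 and Myl1; marker genes and farther neighbours named were added after values had been seen. In hypothalamus, libraries of the same number deviated together (correlations 0.204 to 0.805 over 4 pairs). The labels do not state that these numbers pair samples. Libraries of different numbers were not compared in this way, so a pairing was not tested. No outside columns were used. Some genes covered by this rule are not reported here.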

Additional observations from a re-analysis of the deposited data

How the results depend on the processing

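Over all genes in muscle, 1668 were called, and 2200 with DESeq2, 1677 with relative log expression factors, 2123 with no filter and 1713 with no sex term. Leaving out each library gave 913 to 2052, lowest without CTL muscle 6 (913), COX10 KO muscle 2 (1048) and COX10 KO muscle 5 (1106). With the replicate number as a block, 1004 genes were called in muscle, where same-numbered libraries did not deviate together (correlations -0.165 to 0.137). Nor did they in liver (-0.342 to 0.211), where 9 genes were called with and 9 without the block. In hypothalamus, the block called 2 genes, neither of them among the 6, against 0 without it, and changed no other call there.

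In liver, 9 genes were called, 55 with DESeq2, 175 with no filter, 16 without CTL liver 1 and 4 and 4 to 13 with each library left out, 4 without COX10 KO liver 6 and 5 without CTL liver 6 or COX10 KO liver 1, 2 or 3. Between female and male COX10 KO muscles, 4 were called, 50 with no filter and 4 to 435 with each library left out, 435 without COX10 KO muscle 6. None of these settings called Acox2 in liver, Nog or Cdhr3 in hypothalamus or any of the 6 between the sexes.

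Some log2 fold changes that had not passed changed sign when 1 library was left out. Between the sexes they ran from -0.32 to 0.21 for Nog, -0.62 to 0.18 for Tac4, -0.25 to 0.56 for Cdhr3, -0.15 to 0.29 for Vmn2r3 and -0.56 to 0.15 for Fam227b. In muscle they ran from -0.061 to 0.16 for Kat7, -0.36 to 0.17 for Bmp5, -0.030 to 0.20 for Ace and -0.22 to 0.56 for Mme, and Mme was also 0.010 with no filter and 0.13 with the replicate block. The causes were not tested. Leaving out 1 CTL muscle moved the pooled ratios or bounds of Tac4, Acox2, Vmn2r3 and Fam227b by over 1.5 times, since these rest on 0 to 5 CTL reads.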
